A study of Mus musculus with 12 samples.

Results

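The cytosolic ribosomal protein genes encode the proteins of the large (60S) and small (40S) subunits of the ribosome that translates nuclear messages. They were taken from a table of read counts by symbol, as Rpl, Rps or Rplp followed by a number and at most 1 closing letter, or Rpsa, with at least 10 counts in each of 3 or more libraries. Of 55414 rows in the table, 83 matched the pattern and 80 were kept, 48 of the large and 32 of the small subunit. All 80 were also among the 14919 genes tested. The 3 rows left out were Rpl10l with 0 counts in all 12 libraries, which allows at most 0.0146 CPM (the count scaled to a common library size) for 3 counts over all libraries together, Rpl39l with 8 counts in total and Rpl3l with 15. The pattern was meant to leave out pseudogenes, but the GENCODE M21 annotation gives 3 of the 80, Rpl6l, Rpl32l and Rps4l, a single exon, and calls the first and second of these processed pseudogenes. The proteins RPS3A (Rps3a1), FAU and RACK1, which also belong to the ribosome, fall outside the pattern and are described separately.

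The libraries are RNA sequencing of primary hepatocytes from mouse liver in a study of Hnf4a in sepsis. The genotype of the cells was WT (wild type) or KO (knockout of Hnf4a), and cells of either genotype received vehicle or MJ041, a candidate ligand compound known here only by its code name, with 3 libraries in each of the 4 groups. The labels do not give the dose or time of MJ041, the driver or extent of the deletion, the age of the mice, or whether replicates came from separate animals, so p-values measure only the spread between these libraries. The libraries held 16740761 to 17902832 counts.

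Most of these proteins are present in a single copy per ribosome, and their messages are among the most abundant of a cell. In mammals the messages typically begin with a run of C and T (the 5′ terminal oligopyrimidine, or TOP, element) through which mTOR and the RNA-binding protein LARP1 set their translation and stability. HNF4A, the nuclear receptor altered here, maintains the program of liver-specific genes, and hepatocytes that lose it can re-enter the cell cycle.

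The start sites of 8 members are shown because TOP elements begin there, and because these members stand at either end of the range of responses described below. They are the 4 with the largest and the 4 with the smallest difference between KO and WT among members with more than 1 exon, at least 10 CPM and an entry in the RefSeq promoter table. Each line runs from 40 bases before the annotated start to 20 bases after it, 5′ to 3′ on the gene's strand, in GRCm38.p6, and the capitals mark the longest run of C and T that touches the 15 bases on either side of the start.
Rpl26 (chr11:68901526-68901585, plus strand): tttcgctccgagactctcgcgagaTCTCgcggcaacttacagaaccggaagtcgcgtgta
Rpl13a (chr7:45128726-45128785, minus strand): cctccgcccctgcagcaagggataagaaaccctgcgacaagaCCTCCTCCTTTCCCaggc
Rps21 (chr2:180257339-180257398, plus strand): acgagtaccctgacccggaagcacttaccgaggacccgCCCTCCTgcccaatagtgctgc
Rps18 (chr17:33955646-33955705, minus strand): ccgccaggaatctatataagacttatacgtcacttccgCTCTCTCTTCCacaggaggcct
Rpl28 (chr7:4792925-4792984, plus strand): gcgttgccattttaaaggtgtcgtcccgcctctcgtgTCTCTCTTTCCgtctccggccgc
Rpl10 (chrX:74270776-74270835, plus strand): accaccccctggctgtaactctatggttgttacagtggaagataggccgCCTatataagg
Rps26 (chr10:128626487-128626546, minus strand): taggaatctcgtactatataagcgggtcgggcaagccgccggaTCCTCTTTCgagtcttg
Rps28 (chr17:33824543-33824602, minus strand): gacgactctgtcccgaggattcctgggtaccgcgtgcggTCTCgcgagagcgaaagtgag
Runs of 7 to 11 bases span the annotated start in Rps21, Rps18 and Rpl28, and those of Rpl13a (14 bases) and Rps26 (9 bases) begin a few bases after it. In Rpl26, Rpl10 and Rps28 the longest run near the annotated start is only 3 or 4 bases.

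The RefSeq table held 69 promoter entries for 58 of the 80 members. A run of C and T of at least 8 bases touched the 15 bases on either side of the start in 46.4% of the members' entries and in 17.6% of all 32851 entries. The letters CCGGAAG, which ETS factors bind, were found on either strand in the 300-base entry of 36.2% of the members' promoters against 8.86% of all promoters. AAGATGGCG, a YY1 motif, was in 7.25% against 1.40%, TATAAA in 10.1% against 13.6%, the E-box CACGTG in 11.6% against 7.15%, and the NRF1 motif in 7.25% against 4.6%. CAAAGTCCA, letters that HNF4A can bind, were in 1 member promoter, that of Rpl11 (1.45% against 0.475% of all promoters). None of these motifs contains another, and a match is a description of letters only. The difference between KO and WT was alike with and without the features: members with a run of at least 8 bases had a median log2 fold change of 0.42 (31 members) against 0.40 in the other 27, and members with CCGGAAG 0.42 (24 members) against 0.40 in the other 34.

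In the libraries labelled KO, Hnf4a itself stood at 59.9 to 76.0 CPM against 112 to 178 in WT, so its counts were lower but far from 0. With vehicle it fell by 0.92 on the log2 scale (SE 0.10, adjusted p = 8.9e-06, edgeR's quasi-likelihood test with Benjamini-Hochberg adjustment over 14919 genes, which gives all adjusted p-values below). The summed hepatocyte markers, led by albumin, stood at 57392 to 73780 CPM in WT and 28600 to 32920 in KO. Of the 11 tested hepatocyte markers 6 fell and 2 rose with vehicle. Markers of other liver cells were present at low levels: summed Kupffer cell markers at 193 to 525 CPM in WT and 476 to 529 in KO, endothelial markers at 192 to 487 and 281 to 430, stellate cell markers at 94.1 to 186 and 149 to 211, and cholangiocyte markers at 316 to 618 and 489 to 713. Of the 8 tested cholangiocyte markers 5 rose and 1 fell with vehicle (median log2 fold change 0.99), and their mean log2 CPM was 3.43 to 3.79 in WT and 4.78 to 5.12 in KO, without overlap. The rise of these markers thus went with the ribosomal difference described below, and their part in it was not tested. Cd163 (Kupffer), Des, Hand2 and Lrat (stellate) and Cftr, Cldn7 and Krt7 (cholangiocyte) did not pass the count filter. In bulk RNA, fewer cells of a type and less RNA per cell cannot be told apart.

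The 80 genes together took 2.29%, 2.30% and 2.19% of all counts in the 3 WT vehicle libraries and 2.9%, 3.02% and 3.01% in the 3 KO vehicle libraries. Every KO library thus lay above every WT library, with means of 2.26% ± 0.061 (SD, n = 3) in WT and 2.98% ± 0.068 in KO. With MJ041 the WT libraries held 2.36%, 2.42% and 2.44%, and the KO libraries 2.87%, 3.20% and 2.98%. The 95% interval of each library's share (exact binomial, counting error only) was at most 0.00827 percentage points to either side, far narrower than the spread between replicates. These shares rest on library totals and use no scaling factor.

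**Figure D1:**
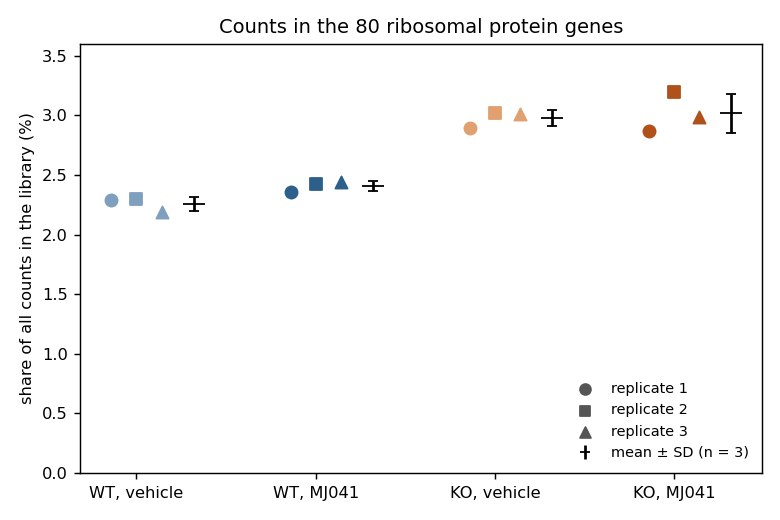
Share of each library's counts in the 80 ribosomal protein genes (y axis, percent), by group (x axis). Symbols are replicates 1 to 3 of the labels, and bars are the mean ± SD of 3 libraries. All 6 KO libraries sit between 2.87% and 3.20%, above the 6 WT libraries at 2.19% to 2.44%.

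The cytosolic ribosomal protein genes were higher in KO than in WT hepatocytes almost without exception, by a small and similar amount. With vehicle, 75 of the 80 rose and 1 fell, where 27.5% of all tested genes rose and 26.9% fell. The median log2 fold change was 0.41, or 1.33-fold, with quartiles of 0.29 and 0.48. The median of all tested genes was -0.00. Of the 80, 64 lay between 0.2 and 0.6, and 74 had a standard error (SE) under 0.1. The log2 fold change was above 0 in 78 members, against 49.8% of all tested genes. In 77 members the 3 KO libraries all lay above the 3 WT libraries, against 31.6% of all tested genes.

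The large and small subunits moved alike. Of the 48 large-subunit genes, 46 rose with a median over all 48 of 0.41, and among the 32 small-subunit genes, whose median was 0.40, 29 rose and only Rps4l fell. Leaving out the 3 single-exon rows, 74 of 77 rose and none fell. Among the members that passed in neither direction were Rpl24, Rpl32l and Rps28.

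**Figure D2:**
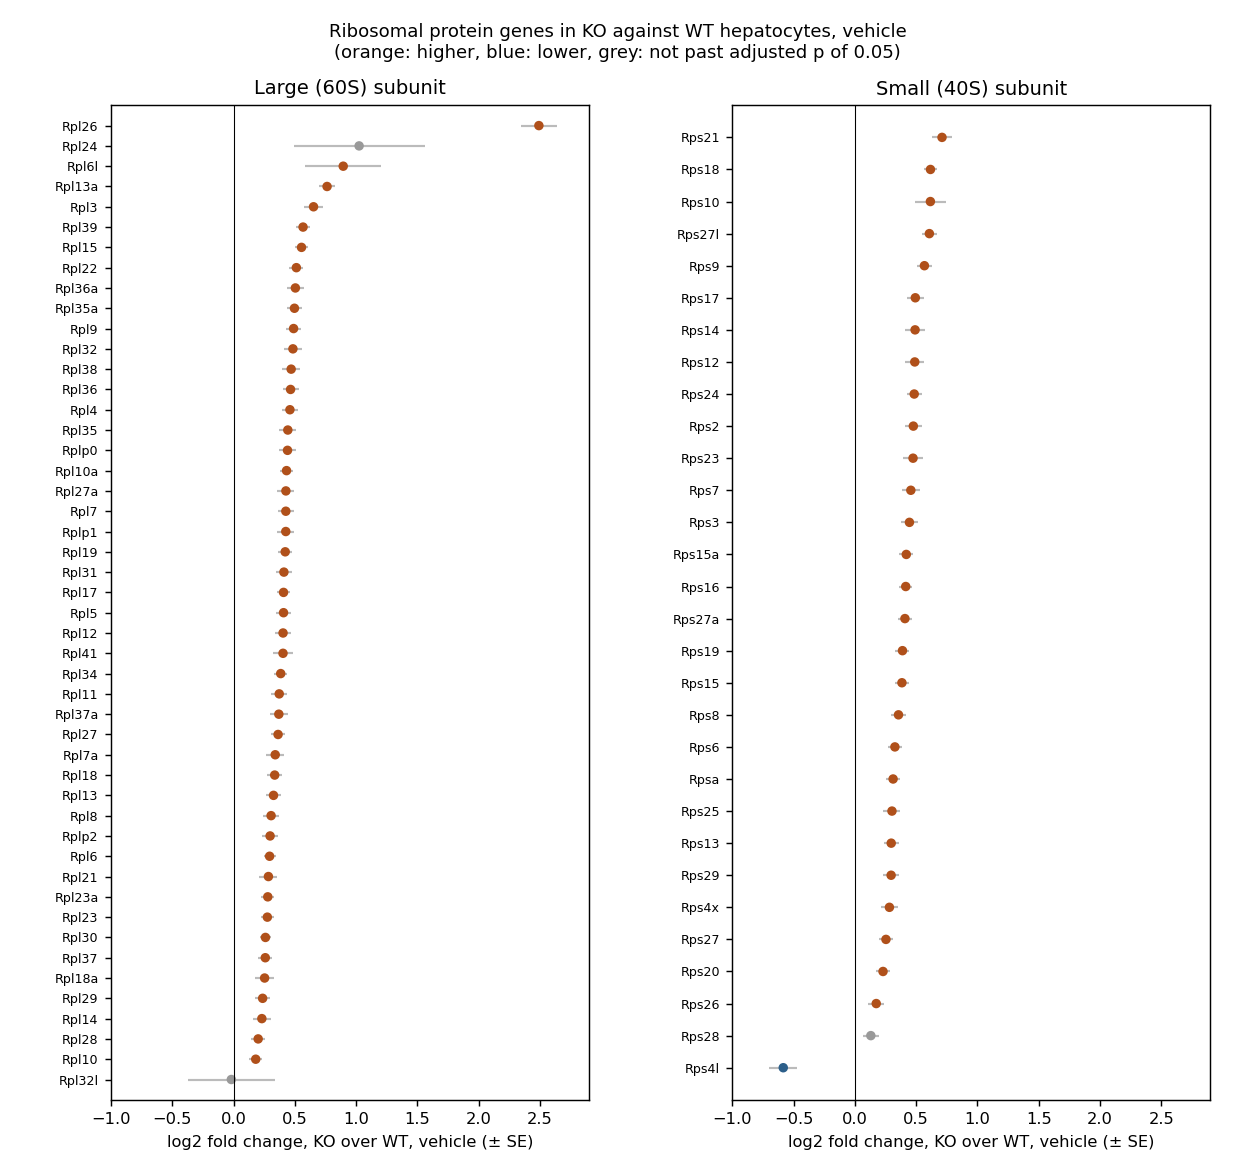
Log2 fold change of 78 of the 80 members in KO over WT with vehicle (x axis, with SE from edgeR, 3 libraries per group), for the large subunit (left) and the small subunit (right). Orange points rose, the blue point (Rps4l) fell and grey points did not pass an adjusted p of 0.05; apart from Rpl26 at 2.49 the points form a narrow column around the median of 0.41.

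Rpl4, Rps3 and Rpl12, all of high count, illustrate the shared difference, with SEs near the members' median of 0.064. Rpl4, a large-subunit protein that reaches into the exit tunnel, had 1016, 1033 and 979 CPM in WT vehicle, 1339, 1451 and 1372 in KO vehicle, 1169, 1165 and 1042 in WT with MJ041 and 1338, 1409 and 1355 in KO with MJ041. All 6 KO libraries were above all 6 WT libraries, and with vehicle the log2 fold change was 0.46 (SE 0.06, adjusted p = 4.4e-05). Rps3, a small-subunit protein at the entry of the message channel, had 561, 539.9 and 546 CPM in WT vehicle and 722, 747 and 773 in KO vehicle, without overlap (0.44, SE 0.07, adjusted p = 9.6e-05). Rpl12, at the base of the stalk, rose by 0.40 (579 ± 19.9 to 765 ± 47.6 CPM, SD, n = 3).

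The stalk of the large subunit, which recruits elongation factors, is built of Rplp0, Rplp1 and Rplp2. Rplp0 had 438, 451 and 406 CPM in WT vehicle and 566, 622 and 568 in KO vehicle, and rose by 0.44 (SE 0.07, adjusted p = 0.00020). Rplp1 had 652, 632 and 584 CPM against 824, 838 and 847, and rose by 0.43 (SE 0.07, adjusted p = 0.00019). The KO libraries lay above the WT libraries for both. Rplp2, with 338, 358 and 345 CPM in WT and 416, 445 and 417 in KO, rose by 0.30 (SE 0.07, adjusted p = 0.0024). Rpsa, the small-subunit protein that also serves as a laminin receptor, had 714, 745 and 668 CPM in WT and 854, 920.1 and 865 in KO, again without overlap (0.31, SE 0.06, adjusted p = 0.00066).

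On a per-length scale (mean CPM in WT vehicle per kilobase of 1 representative GENCODE M21 transcript), the 77 members with more than 1 exon had a median of 318.6 and quartiles of 207.3 and 487.6. Rplp1 was highest at 1248, and Rps12 at 761 and Rpl4 at 656 were also among the highest. The lowest were Rpl24 at 0.449, Rps10 at 6.76, Rpl13a at 31.0, Rps15a at 45.5 and Rpl15 at 55.1. The low value of Rps15a rests on a representative transcript of 5179 bases. The transcripts of Rpl24, Rps10, Rpl13a and Rpl15 share 81.7%, 51.8%, 57.4% and 30.2% of their 50-base words with other annotated transcripts. Reads may be divided between such transcripts. In WT vehicle these genes had means of 0.304, 5.997, 32.4 and 106 CPM. With copy rows added, as described below for Rpl26, the means were 3.18, 7.1, 39.4 and 140.2 CPM. Across the 77 members, the shared percentage had a Pearson correlation of 0.02 (Spearman 0.13) with log2 CPM per kilobase. The part of divided reads in the low values was not tested further.

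Apart from the outlier Rpl26, the largest differences were those of Rpl13a, Rps21 and Rpl3 among members with more than 10 CPM. Rpl13a, known also as the subunit of a complex that silences messages after interferon gamma, had 31.0, 34.3 and 32.1 CPM in WT vehicle and 55.2, 55.2 and 54.6 in KO vehicle. The groups were far apart (log2 fold change 0.76, SE 0.07, adjusted p = 1.1e-06). Rps21 had 128, 145 and 125 CPM in WT and 205, 212 and 234 in KO (0.71, SE 0.08, adjusted p = 9.6e-06). Rpl3, which shapes the peptidyl transferase centre, had 366, 394 and 339.7 CPM in WT and 545, 604 and 578 in KO (0.65, SE 0.08, adjusted p = 1.5e-05).

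At the other end stood Rps28, Rps26 and Rpl10. Rps28 had 78.9, 69.8 and 65.4 CPM in WT and 78.4, 75.9 and 80.02 in KO, with overlap (0.13, SE 0.07, adjusted p = 0.11). It passed without WT vehicle replicate 1, its highest WT library (0.20, adjusted p = 0.015). Rps26 (0.17, SE 0.07, adjusted p = 0.041) and Rpl10, the last protein to join the large subunit (0.18, SE 0.05, adjusted p = 0.014), passed narrowly: Rps26 missed the threshold in 12 of 22 other settings (adjusted p 0.0091 to 0.24 over them) and Rpl10 in 5 (0.0031 to 0.071), 11 and 5 of which left out 1 library each.

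Rps4l was the 1 member that fell. It had 41.8, 34.9 and 42.4 CPM in WT vehicle and 25.8, 26.6 and 27.0 in KO vehicle, and 31.6, 25.6 and 37.0 in WT with MJ041 against 25.1, 28.2 and 27.9 in KO. The vehicle groups did not overlap and the MJ041 groups did. The fall was 0.59 with vehicle (log2 fold change -0.59, SE 0.12, adjusted p = 0.00084), while its close relative Rps4x rose (0.28, adjusted p = 0.0028). The row is a single-exon transcript that shares 14.9% of its 50-base words with other genes.

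Other genes as abundant or as short were compared with the members. In the 2226 other tested genes of at least 100 CPM, 28.8% were called higher in KO at an adjusted p under 0.05, with a median log2 fold change of -0.05. The members' transcripts are short, with a median of 777.5 bases against 2897 in other coding genes. Among the 746 other tested genes with transcripts under 1 kilobase the median was 0.14 and 35.8% were called higher, so short genes as a class were shifted in the same direction by a smaller amount. The part of transcript length in the result was not tested further. Across the 77 members with more than 1 exon, the log2 fold change had a Pearson correlation of -0.10 with transcript length and -0.44 (Spearman -0.25) with log2 CPM in WT vehicle, a level that also enters the fold change.

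Within the KO groups the libraries kept an order. Replicate 1 was the lowest of its group for 64 of the 80 members with vehicle and for 65 with MJ041, and replicate 2 the highest for 58 and for 74. The cell cycle genes followed the same order: their mean log2 CPM was 5.04, 5.49 and 5.22 in KO vehicle replicates 1, 2 and 3 and 4.90, 5.74 and 5.44 with MJ041, against 3.17 to 3.43 in the 6 WT libraries. Of the 25 cell cycle genes 22 rose in KO with vehicle (median log2 fold change 1.77) and none fell, among them Ccnd1 (2.96) and Mki67 (3.58). Whether the number of cycling cells had a part in the ribosomal difference was not tested.

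The remaining ribosomal proteins did not all follow. Rack1, the scaffold protein on the head of the small subunit, had 887, 902 and 867 CPM in WT vehicle and 1140, 1251 and 1192 in KO vehicle and rose like the members (0.43, SE 0.06, adjusted p = 5.2e-05). Fau, made as a fusion of a ubiquitin-like protein with RPS30, had 168, 173 and 160.0 CPM in WT and 166, 203 and 189 in KO, with overlap (0.15, SE 0.09, adjusted p = 0.16). Rps27a, a member made as a fusion with ubiquitin, rose by 0.41 (351 ± 15.8 to 466 ± 12.9 CPM). Of the 5 tested paralogs of ribosomal proteins, 2 of which (Rps27l and Rps4l) the pattern also takes in, Rps27l (0.61) and Rpl22l1 (0.74) rose, Rps4l and Rpl7l1 (-0.18) fell, and Rpl36al was near 0.8 CPM in both vehicle groups and did not pass (0.13).

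The genes that build ribosomes moved the other way. Of 58 ribosome assembly factors 44 fell and 2 rose in KO with vehicle, with a median log2 fold change of -0.32, where 26.9% of all tested genes fell. Tsr1, which matures the small subunit, had 211, 211 and 224 CPM in WT vehicle and 139, 134 and 139.7 in KO vehicle, without overlap (-0.65, SE 0.05, adjusted p = 6.7e-07). Nop2, a methyltransferase of ribosomal RNA, fell by 0.56. Of 11 tested RNA polymerase I genes, which make that RNA, 6 fell and 1 rose (median -0.23), Polr1a by 0.26.

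Other genes of protein synthesis were mixed. Of 27 initiation factor genes 19 fell and 4 rose (median -0.23), among them Eif6, which keeps the subunits apart (524, 552 and 503 CPM in WT, 289, 323 and 334 in KO, log2 fold change -0.74). The 19 translation factors whose messages also carry TOP elements split into 8 that rose and 3 that fell (median 0.13). Eef1g (0.44) and Eef1b2 (0.45), subunits of elongation factor 1, rose by about as much as the members, and Eif4b fell (-0.36). Of 77 mitochondrial ribosomal proteins, which serve a separate ribosome, 18 were called higher and 11 lower (median 0.05).

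Among 21 tested genes of mTOR signalling and growth control, 12 fell and 5 rose (median -0.30). Larp1 had 412, 396 and 402 CPM in WT vehicle and 268.6, 272 and 273 in KO vehicle (-0.57, SE 0.05, adjusted p = 5.9e-07). Myc, a transcription factor known to raise ribosome production, had 312, 320.3 and 295 CPM in WT and 201, 196 and 186 in KO (-0.67, SE 0.07, adjusted p = 4.0e-06). Neither gene's groups overlapped.

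**Figure D3:**
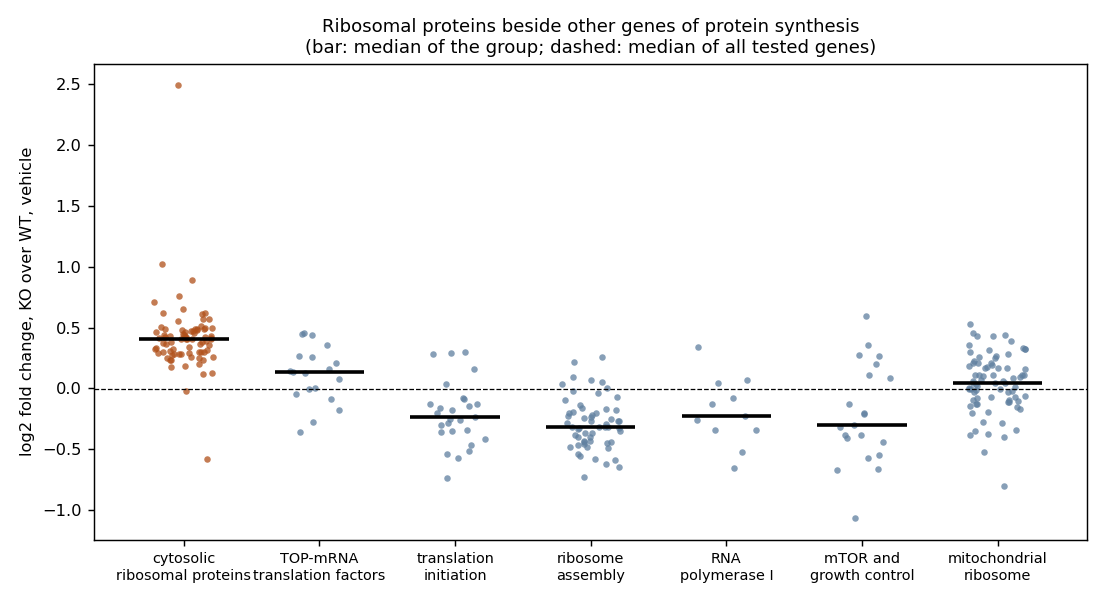
Log2 fold change in KO over WT with vehicle (y axis), 1 point per gene, for the 80 ribosomal protein genes and 6 other groups of genes (x axis); bars are group medians and the dashed line is the median of all tested genes. The ribosomal protein genes have a median of 0.41, ribosome assembly factors of -0.32 and mitochondrial ribosomal proteins of 0.05.

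With MJ041 on both genotypes, 57 of the 80 members rose in KO and none fell, where 26.8% of all tested genes rose, 27.6% fell and 54.4% thus passed in either direction. This comparison shares no library with the one under vehicle, but both come from the same fit with a shared estimate of spread. Libraries of the same number may also come from the same cells, which the labels do not say. In KO the shares of Rpl26 and Rps18 in their pairs, described below, repeated by number. The comparisons can thus not be taken as independent. The median log2 fold change was 0.28, or 1.21-fold, against 0.02 in all tested genes. It was above 0 in 77 members, against 51.7% of all tested genes, and in 62 members the groups did not overlap, against 29.4% of all tested genes. The same 57 members rose in both comparisons, where 21.7% of all tested genes did. The sizes of both differences ran in parallel across members (Pearson 0.94 over 80 members, 0.86 without Rpl26).

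In 77 of the 80 members the signed log2 fold change was lower with MJ041 than with vehicle. The 3 others were Rpl41, Rps2 and Rps4l, the last of which was below 0 in both (-0.59 and -0.22). Rps2, of the small subunit, had 349, 353 and 343 CPM in WT vehicle, 361, 352 and 358 in WT with MJ041, 532, 440.2 and 482 in KO vehicle and 548, 482 and 506 in KO with MJ041. Its WT groups overlapped, and it was named after its values were seen. Leaving out KO MJ041 replicate 2, the library with the highest level of 74 members, the number that rose with MJ041 was 45 and the median 0.20.

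In the WT libraries the members stood slightly higher with MJ041 than with vehicle, at the edge of what 3 libraries a group resolve. Members tend to rise and fall together within a library, so the number of members in a direction adds no replication. With MJ041 against vehicle in WT, the log2 fold change was above 0 for 79 of the 80 members, with a median of 0.15, or 1.11-fold, against 0.03 for all tested genes, of which 55.6% were above 0. With library totals alone as the scaling the median was 0.087. Only Rpl3 passed, where 1.19% of all tested genes rose and 2.21% passed in either direction. An unadjusted p under 0.05 was reached by 50 of 80 members and by 3219 of all 14919 tested genes. In 60 members every MJ041 library lay above every vehicle library, against 13.1% of all tested genes.

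Rpl3 had 366, 394 and 339.7 CPM in WT vehicle and 448, 499 and 447 in WT with MJ041, without overlap (log2 fold change 0.34, SE 0.08, adjusted p = 0.043). The call was lost in 14 of 22 other settings, 9 of which left out a single library (WT vehicle replicates 1 and 3, WT MJ041 replicates 1 and 2, KO vehicle replicates 1, 2 and 3, and KO MJ041 replicates 1 and 3), while its log2 fold change stayed between 0.27 and 0.37. The Rpl3 transcript shares 85.6% of its 50-base words with other annotated transcripts. Its copy Rpl3-ps1 held 150, 85 and 156 counts in WT vehicle and 7, 33 and 106 in WT with MJ041, with overlap. With copy rows added, as described below for Rpl26, Rpl3 had 0.32 (SE 0.08, adjusted p = 0.048). Next by p-value was Rps9, of the small subunit, with 439.5, 464 and 451 CPM in WT vehicle and 533, 525 and 537 with MJ041 (0.24, SE 0.06, adjusted p = 0.056). Rpl36 (133, 136 and 140.2 CPM against 163, 155 and 167) followed with 0.24 (adjusted p = 0.066), and Rpl12, Rpl30 and Rpl39 with 0.22, 0.16 and 0.18 (adjusted p of 0.079, 0.081 and 0.093). For each of these 5 genes (Rps9, Rpl36, Rpl12, Rpl30 and Rpl39) the WT libraries with MJ041 lay above those with vehicle, and none passed.

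Other measures moved with this small difference. WT vehicle replicate 3 was the lowest of its group for 59 members, and without it the median difference was 0.10 and the median of KO over WT with vehicle, which uses the same vehicle libraries, 0.34. That library also had the highest summed Kupffer and endothelial markers of WT, at 525 and 487 CPM, while WT MJ041 replicates 1 and 2 had the lowest endothelial markers, at 192 and 208 CPM. The median log2 fold change with MJ041 in WT was -0.60 over 14 Kupffer cell markers, -0.76 over 15 endothelial markers and -0.42 over 12 stellate cell markers, none of which passed. In a fit that takes the mean of the Kupffer, endothelial and stellate markers as a covariate the median over the members was 0.13, and Rpl3 had 0.32 (adjusted p = 0.15). The 19 TOP translation factors were all above 0 with a median of 0.13, and the 746 other short genes had a median of 0.08.

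In KO hepatocytes no difference with MJ041 was resolved. No member passed, as none of the 14919 tested genes did (0%), and DESeq2 called no member either. An unadjusted p under 0.05 was reached by 0 of 80 members and by 414 of all tested genes. The median log2 fold change was 0.02, with 55 of 80 members above 0 against 52.4% of all tested genes. Only Rps19 and Rps28 had groups that did not overlap with MJ041 higher, where 5.13% of all tested genes did. Rps19, of the small subunit, had 261, 272 and 281 CPM with vehicle and 288, 308 and 286 with MJ041 (0.11, SE 0.06, adjusted p of 1). Rps10 had 9.94, 9.01 and 8.64 CPM with vehicle and 7.66, 7.61 and 7.89 with MJ041 (-0.25, SE 0.12, adjusted p of 1), although it was higher in KO than in WT vehicle (0.62).

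The test of whether MJ041 acted differently in the genotypes, the interaction, called no member and none of all tested genes (0%) with edgeR, and DESeq2 called no member. An unadjusted p under 0.05 was reached by 11 of 80 members and by 1980 of all tested genes. The median interaction was -0.13 against -0.02 over all tested genes, and 3 members were above 0 where 47% of all tested genes were. The median was -0.070 with library totals alone and -0.071 without KO MJ041 replicate 1, and with no filter on low counts 1 member was called. The smallest adjusted p among members was 0.20, for Rpl3 (-0.36, SE 0.11), followed in the order of p by Rpl36 (-0.27, SE 0.09) and Rpl13a (-0.26, SE 0.09). A difference of the MJ041 effect between genotypes was thus not shown for any single member.

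**Figure D4:**
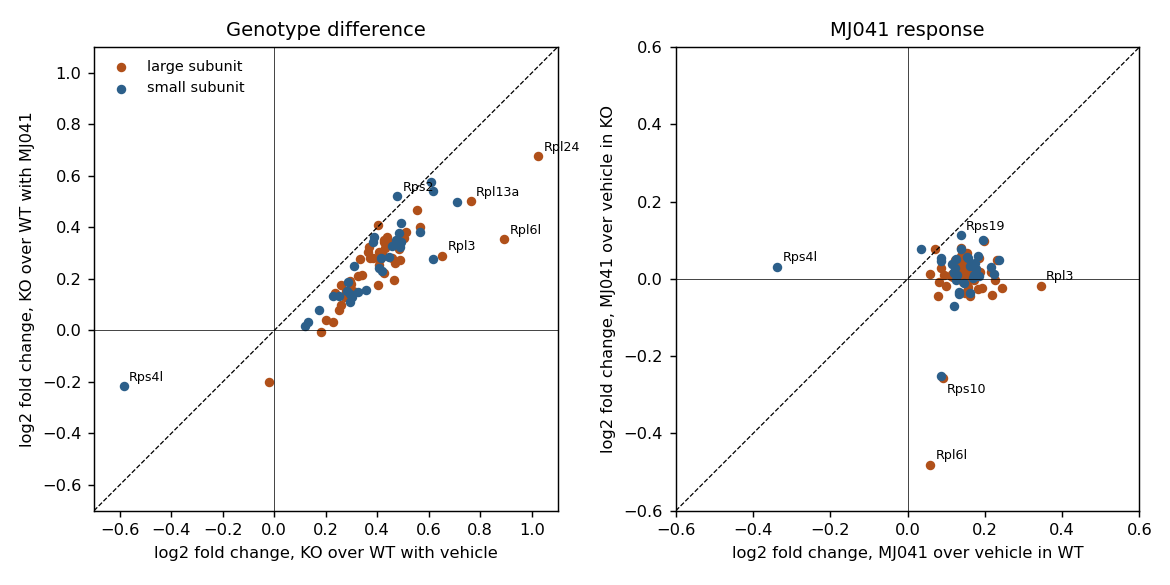
Log2 fold change of KO over WT with vehicle (x axis) against that with MJ041 (y axis, left), and of MJ041 over vehicle in WT (x axis) against that in KO (y axis, right); points are members, coloured by subunit, the dashed diagonal marks equal values, and Rpl26 lies beyond the left axes. On the left 76 of 79 points lie below the diagonal, and on the right most points lie right of 0 and near 0 on the y axis (medians 0.15 and 0.02).

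The largest value of all, that of Rpl26, went with an opposite difference in a near-identical row. Rpl26, a large-subunit protein also known to bind the message of p53, had 32.1, 34.2 and 36.4 CPM in WT vehicle, 39.1, 36.3 and 40.8 in WT with MJ041, 228, 158 and 190.4 in KO vehicle and 231, 159.8 and 197 in KO with MJ041. The log2 fold change with vehicle was 2.49 (SE 0.14, adjusted p = 3.1e-08), with no overlap. The row of the predicted gene Gm15772 shares 60.6% of the 50-base words of the Rpl26 transcript. It held 1776, 1736 and 1791 counts in WT vehicle and 43, 1173 and 602 in KO vehicle, and 38, 1146 and 521 in KO with MJ041. Gm15772 and the other copies named here were chosen after their values were seen.

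Rpl26 took 24.1% to 27.2% of the summed counts of the pair in all 6 WT libraries. In KO it took 98.9%, 69.9% and 85.0% in vehicle replicates 1, 2 and 3 and 99.0%, 70.9% and 86.6% in MJ041 replicates 1, 2 and 3. The split therefore varied widely among KO libraries and followed the replicate number, while the sum did not: 135 ± 2.40 CPM in WT vehicle, 227 ± 3.51 in KO vehicle, 150.2 ± 0.142 in WT with MJ041 and 229 ± 3.93 in KO with MJ041 (SD, n = 3). With all near-identical rows added to Rpl26 the log2 fold change was 0.75 (SE 0.04, adjusted p = 1.9e-08), still among the larger values of the members but no longer apart from them.

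**Figure D5:**
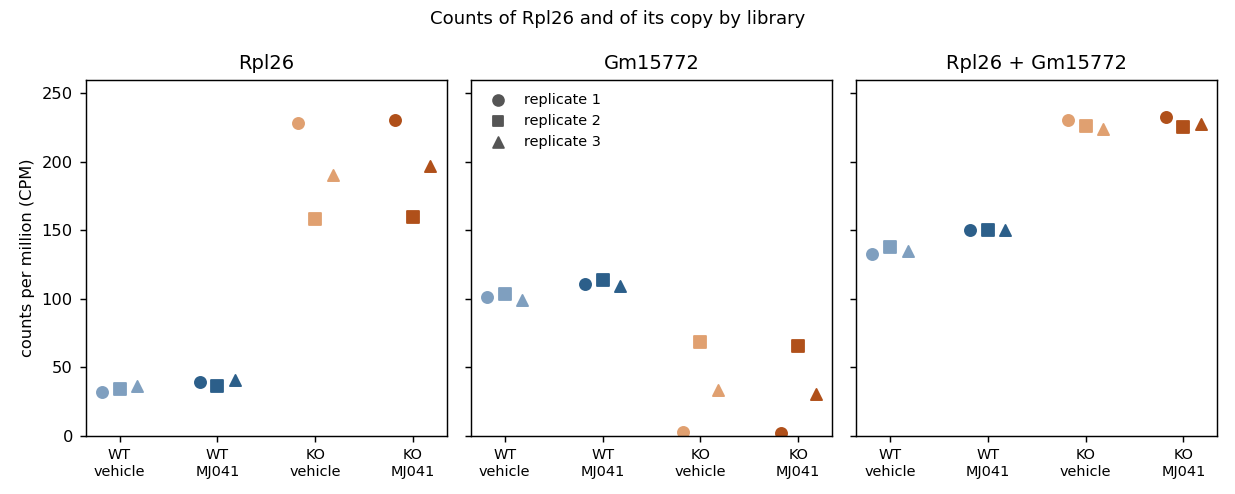
Normalised read count (CPM, y axis) of Rpl26, of its near-identical predicted gene Gm15772 and of their sum in the 12 libraries, by group (x axis). The sum is 135 ± 2.40 CPM in WT vehicle and 227 ± 3.51 in KO vehicle, while the division between the rows differs among the KO replicates.

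The member Rps18 had a similar though smaller imbalance, while the share of Rps3a1, outside the pattern, varied in WT and was steady in KO. Rps18 took 63.6% to 66.0% of its pair with Gm10260 in WT and 81.1%, 63.0% and 72.6% in KO vehicle replicates 1, 2 and 3. With copies added its log2 fold change went from 0.62 to 0.49 (adjusted p = 0.00021). Rps3a1, which encodes RPS3A and lies outside the pattern, shared counts with Rps3a3 and took 73.7%, 56.1% and 74.2% of the pair in WT vehicle, 39.0%, 38.1% and 58.0% in WT with MJ041 and 73.0% to 74.9% in KO. The sum of that pair was 290.2 ± 12.9 CPM in WT vehicle, 284 ± 10.4 in WT with MJ041 and 386 ± 24.7 in KO vehicle, so the sum was higher in KO. The shares of the WT groups overlapped, and a change of the share was not tested.

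Near-identical copies are common for these genes, since processed pseudogenes are scattered over the genome. Of the 80 members, 37 share at least 50% of their 50-base words with other annotated transcripts. Adding 437 copy rows to their members, by the rule given for Rpl26, moved 4 members by more than 0.1 on the log2 scale. Among them were Rpl24, from 1.02 to 0.04, and Rpl6l, from 0.89 to 0.45, and the median was then 0.40. Neither Rpl24 nor Rpl6l can be read with confidence: Rpl24 had 92 counts over all 12 libraries and did not pass (SE 0.53, adjusted p = 0.12), and Rpl6l, with 248 counts, lost its call in 6 of 22 other settings. Rpl32l, at 9.84, 7.28 and 8.45 CPM in WT vehicle and 5.37, 10.1 and 9.81 in KO vehicle, did not pass (-0.02, SE 0.35, adjusted p = 0.97).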

How the data were processed

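Gene counts were deposited by the authors as 1 table of whole numbers for 12 libraries. Per the submitters' processing notes, FastQC, Trimmomatic 0.34, STAR 2.7.10b, featureCounts, DESeq2 and the build mm39 were used. Libraries were made with a stranded kit, per the labels' protocols; the strand and multimapping settings of the counting are not given in the sources used here, so reads of near-identical or overlapping genes may be divided unevenly. Members and lists were chosen with earlier results of these data known.

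Counts were tested in R 4.3.3 with edgeR 4.0.16 (quasi-likelihood, TMM scaling, filterByExpr with a minimum count of 10, prior count 2, 1 coefficient per group over all 12 libraries; limma 3.58.1 is its dependency). P-values are two-sided and were adjusted by Benjamini-Hochberg over 14919 genes, with a threshold of 0.05. The SE was derived from the F statistic, as the size of the log2 fold change over the root of F. CPM are scaled by TMM. The test was checked on simulated data. Alternatives included DESeq2 1.42.0, other scalings, no filter and leaving out each library.

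Symbols came from GENCODE M21 (52081 of 55414 identifiers, 14885 of 14919 tested), used otherwise only for transcript properties, since its build differs from that of the counts. Promoters came from RefSeq (GRCm38.p6). Named members are the 6 largest and 6 smallest differences between genotypes with vehicle, the 6 most abundant, the 6 smallest p for MJ041 in WT, the 3 smallest p for MJ041 in KO and for the interaction, any called against the majority, and Rpsa and the stalk genes; outside the members, up to 4 per list by adjusted p, and partners and paralogs; some of these are not reported here. Others (Rps2, Rps4x, Rps12, Rps15a, Rps18, Rpl15, Rps27a, Rpl28, Rpl41, Rpl11 and the copies) were named after their values were seen.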

Additional observations from a re-analysis of the deposited data

How the results depend on the processing

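The difference between genotypes kept its direction under every setting run. With vehicle 74 to 75 members rose under other tools and scalings, and 68 to 75 when 1 library was left out (median 0.34 to 0.41); with MJ041 49 to 70 rose, and 45 to 61 when 1 library was left out (median 0.20 to 0.29, and 0.34 with library totals alone). The count for MJ041 in WT did depend on the setting: against 1, it was 0 with library totals, with TMM without ribosomal genes, with only the groups compared, with the marker covariate and without both WT MJ041 libraries low in stellate markers, 7 with the DESeq2 Wald test, 8 with no filter and 0 to 10 when 1 library was left out, the highest without WT MJ041 replicate 3. Its median was 0.087 with library totals and 0.10 to 0.16 when 1 library was left out. The median for MJ041 in KO ran from -0.044 (without KO MJ041 replicate 2) to 0.054 (without KO MJ041 replicate 1). The interaction called 1 member with no filter, and its median was -0.070 with library totals and -0.16 to -0.071 when 1 library was left out. Without mitochondrial genes and Alb the members' share was 2.43% in WT vehicle, 2.60% in WT with MJ041 and 3.13% in KO vehicle. Rpl32l reversed to 0.09 without WT vehicle replicate 1 and to 0.18 without KO vehicle replicate 1, and ran down to -0.18 without KO vehicle replicate 3. The causes of these shifts were not tested. The shares of all tested genes called under these settings are not given here. The counts of members therefore show only how the calls depend on the setting. The sums with copy rows were chosen after seeing the data.

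The labels do not say that replicate numbers pair libraries, and not every pair passed the correlation of 0.1 set for pairing: deviations of same-numbered libraries correlated by -0.01, 0.20 and 0.50 in WT and 0.35, 0.46 and 0.04 in KO. In KO the order of the members and the shares of Rpl26 and Rps18 in their pairs nevertheless repeated by number. With a replicate block, 75 members rose with vehicle, 63 with MJ041, 4 were called for MJ041 in WT, and 0 for MJ041 in KO and the interaction. The shares of all tested genes called with the block are not given here either.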
